A study of Mus musculus with 6 samples.

Results

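Genes for receptors of the classical neurotransmitters were examined for promoter H3K27me3 in mouse ovarian granulosa cells (GCs). The set held every protein-coding autosomal gene whose symbol starts with Gabr, Gria, Grik, Grin1 to Grin3, Grm, Glra, Htr1 to Htr7, Drd, Adra, Adrb, Chrm or Chrn, which gave 89 of the 20807 protein-coding autosomal genes in the mm10 annotation. A further 7 such genes on the X chromosome and 2 antisense genes lay outside the rule. The rule used only the symbols, not the signal. Anti-H3K27me3 CUT&Tag, in which an antibody directs a transposase to cut and tag the DNA beside the mark, was performed on GCs of juvenile female ICR mice primed with PMSG, the gonadotropin that drives follicle growth. The mice were injected once with PBS or with cyclophosphamide (CTX), an alkylating chemotherapeutic agent, and GCs were collected 6 h later. Each group had 3 libraries, each made from GCs pooled over several mice, so differences between single mice were not measured. A gene was scored in a library when a merged peak overlapped the 2000 bp on either side of any of its annotated transcription start sites (TSSs).

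These receptors fall into ligand-gated ion channels, which open an ion pore when the transmitter binds, and G protein-coupled receptors, which signal through second messengers. Most are best known from neurons and muscle, although adrenergic, dopaminergic, GABAergic and cholinergic signalling has also been described in the ovary. H3K27me3 is laid down by the methyltransferases EZH1/2 within Polycomb repressive complex 2, gathers at CpG-rich promoters of genes that belong to other lineages, and accompanies transcriptional silence. RNA was not measured in these libraries, so a peak or its absence gives no expression level.

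The libraries held 4244 to 6378 merged peaks in the PBS group and 2916 to 4993 in the CTX group, and CTX replicate 3 had the fewest. The depth recovered from the peak statistics was 1376 to 1958 reads per Mb in PBS libraries and 1118 to 1630 in CTX libraries, and the difference was within the spread between libraries (two-sided exact permutation test, p = 0.5, where 3 against 3 cannot go below 0.1). Of 19 genes that mark GC identity or function, among them Foxl2, Fshr, Amh and Cyp19a1, 17 had no promoter peak in any library. The share of this list with a peak, 10.5%, was close to the 12.4% of all protein-coding genes. Ihh was called in 3 libraries and Kitl, which encodes the KIT ligand, in 1. Presence of other cell types cannot be read from these peak lists, and fewer cells with the mark or less of the mark in each cell cannot be told apart.

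The promoters themselves are shown for 3 receptor genes called in all 6 libraries and for 2 receptor genes of the same families that were never called. The 3 were those with the highest pileup that had a sequence in the RefSeq promoter table, which held 64 of the 89 genes, and the other 2 were picked after their CG counts were seen. Each line gives the 250 bases upstream of a RefSeq start site in GRCm38.p6, written 5′ to 3′ on the strand of the gene, and CG dinucleotides are in capitals because H3K27me3 is known to gather at CpG-dense promoters.
Adra2b (chr2:127362929-127363178, plus strand): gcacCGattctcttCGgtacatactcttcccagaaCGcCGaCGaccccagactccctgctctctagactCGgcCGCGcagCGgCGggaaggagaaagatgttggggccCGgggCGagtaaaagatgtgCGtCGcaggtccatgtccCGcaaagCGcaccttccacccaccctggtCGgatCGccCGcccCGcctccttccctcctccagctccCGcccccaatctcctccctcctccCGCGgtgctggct
Chrna3 (chr9:55026563-55026812, minus strand): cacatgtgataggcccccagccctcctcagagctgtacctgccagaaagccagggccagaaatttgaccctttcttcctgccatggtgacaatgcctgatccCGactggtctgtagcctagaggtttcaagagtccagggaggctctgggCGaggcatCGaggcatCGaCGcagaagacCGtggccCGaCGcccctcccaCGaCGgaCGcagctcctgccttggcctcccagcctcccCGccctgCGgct
Htr6 (chr4:139074790-139075039, minus strand): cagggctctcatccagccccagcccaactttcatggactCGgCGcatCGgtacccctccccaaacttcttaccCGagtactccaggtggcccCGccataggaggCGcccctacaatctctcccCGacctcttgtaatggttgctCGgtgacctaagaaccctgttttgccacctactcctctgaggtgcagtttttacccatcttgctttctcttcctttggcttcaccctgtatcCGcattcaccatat
Chrna4 (chr2:181039178-181039427, minus strand, never called): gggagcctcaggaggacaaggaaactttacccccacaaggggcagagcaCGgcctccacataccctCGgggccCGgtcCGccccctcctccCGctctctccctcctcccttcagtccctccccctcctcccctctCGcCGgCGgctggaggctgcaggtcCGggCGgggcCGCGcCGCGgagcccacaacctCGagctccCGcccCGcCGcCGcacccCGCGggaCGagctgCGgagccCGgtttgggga
Htr3b (chr9:48964991-48965240, minus strand, never called): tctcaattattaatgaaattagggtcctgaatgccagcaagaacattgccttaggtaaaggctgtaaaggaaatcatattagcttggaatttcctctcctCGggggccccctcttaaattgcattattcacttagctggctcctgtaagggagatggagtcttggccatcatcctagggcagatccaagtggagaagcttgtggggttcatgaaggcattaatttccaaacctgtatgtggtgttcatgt
The Adra2b stretch held 23 CG, that of Chrna3 13 and that of Htr6 9. The Htr6 stretch shown lies at an internal start site. A further stretch, directly upstream of the 5′ end of Htr6 (chr4:139075571-139075820), held 23 CG and was covered in PBS replicates 1 and 3 only, over 250 and 248 bases. Chrna4, with 24 CG, was never called, and Htr3b held 1. Peaks lay over the Chrna3 and Htr6 stretches shown in each of the 6 libraries and covered 13 to 250 and 92 to 250 of the 250 bases, whereas no peak reached the Adra2b stretch in any library. Over all 15687 protein-coding genes with a sequence, 93.2% had at least 1 CG in these 250 bases, and the median was 11. The median was 11.5 for 12 receptor genes called in 6 libraries, 12 for 21 called in 1 to 5 and 7 for 31 never called, by the first stretch listed for each gene.

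Receptor genes carried an H3K27me3 promoter peak more often than protein-coding genes at large. A peak was found in at least 1 library at 46 of 89 receptor genes (51.7%), against 12.4% of all protein-coding genes. In all 6 libraries 18 receptor genes (20.2%) were called, against 3.64% of all. By library, 42, 32 and 38 receptor genes were called in the PBS group and 32, 31 and 22 in the CTX group. The shares were 41.9% ± 5.66 (SD, n = 3) in PBS and 31.8% ± 6.19 in CTX, beside 8.64% ± 1.09 and 6.26% ± 1.44 of all genes. In each library the receptor genes were thus called 4.57 to 5.62 times as often as all genes, 4.85 ± 0.138 times in PBS and 5.13 ± 0.531 times in CTX. Since the genes were chosen with earlier results of these data known, no test was made of these shares. The sequence searched, which grows with the number of TSSs of a gene, had a median of 4926 bp at receptor genes and 7142 bp at all genes.

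**Figure D1:**
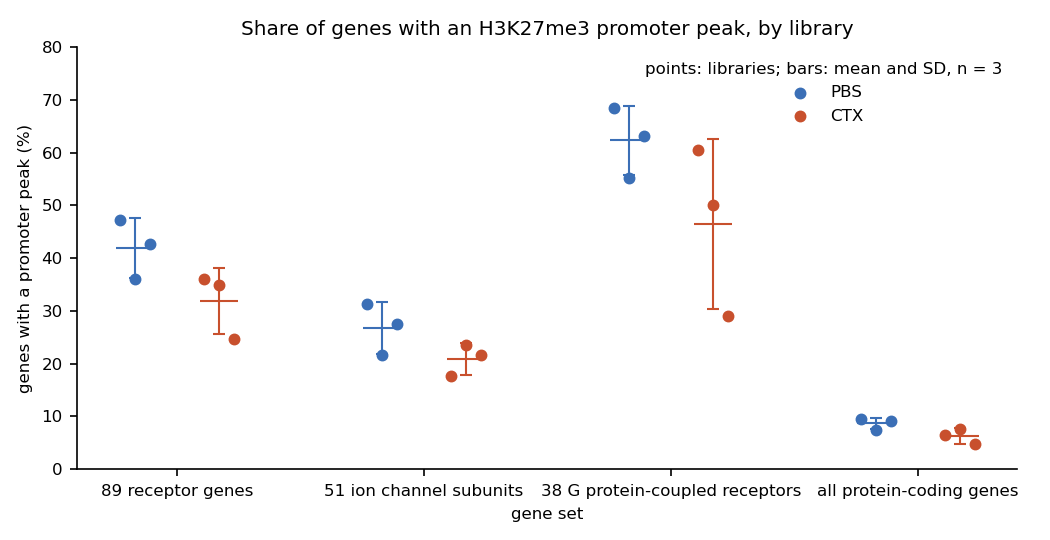
Share of genes with an H3K27me3 promoter peak (%, vertical axis) in each of 3 PBS (blue) and 3 CTX (red) libraries for 4 gene sets, with the mean and SD. The share of the 89 receptor genes lies between 24.7% and 47.2%, above that of all protein-coding genes at 4.75% to 9.46%, and the G protein-coupled receptors lie above the ion channel subunits in every library, at 28.9% to 68.4% against 17.6% to 31.4%.

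The share was unequal between the classes. Of 38 G protein-coupled receptors, 28 (73.7%) had a peak in at least 1 library and 11 in all 6. Of 51 ion channel subunits, 18 (35.3%) had a peak in at least 1 library and 7 in all 6. The G protein-coupled receptors were called at 26, 21 and 24 genes in PBS libraries and at 23, 19 and 11 in CTX libraries. The counts for ion channel subunits were 16, 11 and 14 in PBS and 9, 12 and 11 in CTX. CTX replicate 3, the library with the fewest peaks, was thus the lowest for the G protein-coupled receptors but not for the channel subunits. CpG-rich promoters, as defined with the sequence results, made up 19 of the 38 and 23 of the 51.

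**Figure D2:**
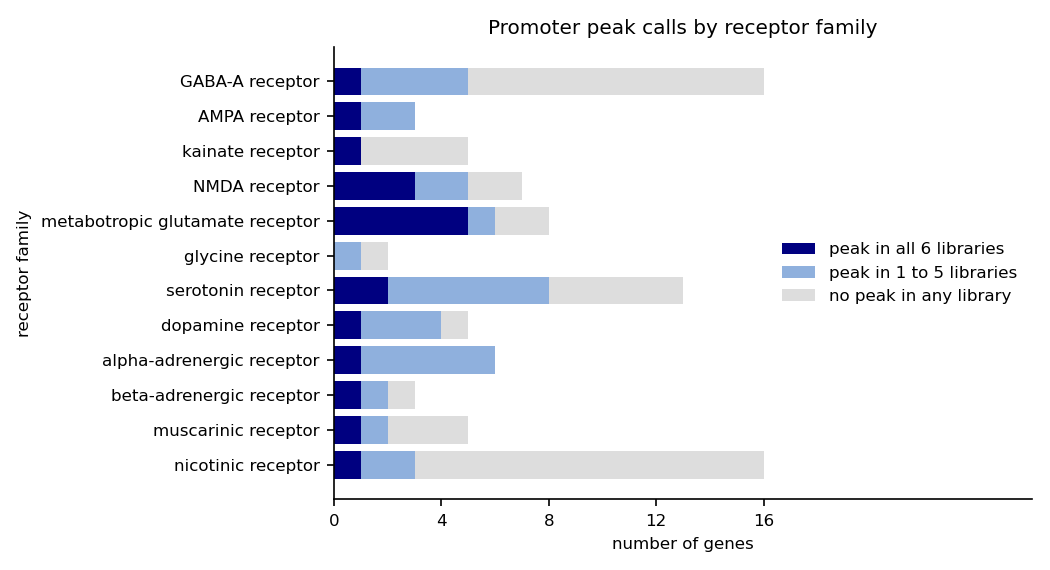
Number of genes (horizontal axis) in each of 12 receptor families, split by whether a promoter peak was called in all 6 libraries (dark blue), in 1 to 5 (light blue) or in none (grey). Metabotropic glutamate receptors have 5 of 8 genes called in all 6, whereas 13 of 16 nicotinic and 11 of 16 GABA-A subunit genes have none.

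Among the ionotropic glutamate receptors, which carry fast excitatory transmission, NMDA receptor subunits had peaks at 5 of 7 genes. Grin2a (chr16:9567898-9995560, minus strand), which encodes the GluN2A subunit, had a pileup of 44.4, 40.7 and 45.2 in PBS libraries and 34.9, 33.1 and 28.6 in CTX libraries. The pileup is the highest number of overlapping fragments at a peak summit in the window, scaled to a library of 1000 reads per Mb. Grin2a was the second highest of all receptor genes, with every CTX library below every PBS library. Grin3a, for the glycine-binding GluN3A subunit, gave 21.5, 26.2 and 32.0 in PBS and 29.3, 27.0 and 23.3 in CTX, with overlapping groups. At Grin2d, for GluN2D, the values were 27.6, 18.9 and 23.2 in PBS and 19.5, 15.3 and 25.0 in CTX, again overlapping. The Grin2d peak also fell in the window of its coding neighbour Kdelr1 and cannot be assigned to either gene. Grin3b was called in all libraries but CTX replicate 1, at 11.7, 11.6 and 12.5 in PBS and 11.0 and 8.94 in CTX. Grin1, the obligate subunit of NMDA receptors, was called in PBS replicates 1 and 3 and CTX replicate 3. Grin2b and Grin2c had no promoter peak, although peaks lay in the gene body of Grin2c in 5 libraries and of Grin2b in 3. All 3 autosomal AMPA receptor genes were called at least once, of which Gria2, whose subunit limits calcium entry, was called in all 6, Gria1 in 4 and Gria4 in 1. Gria2 gave 15.8, 18.2 and 22.6 in PBS and 12.6, 16.6 and 10.7 in CTX, and the groups overlapped. Of 5 kainate receptor genes only Grik1 was called, in all 6 libraries, with 17.9, 17.4 and 22.6 in PBS and 11.9, 16.0 and 21.5 in CTX. Grik2, Grik3, Grik4 and Grik5 had none.

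Metabotropic glutamate receptors had the highest share called in all 6 libraries of the 12 families, 5 of 8. Grm4 (chr17:27422387-27521403, minus strand), for an inhibitory presynaptic receptor, had the highest mean pileup of all receptor genes, with 41.9, 44.3 and 60.8 in PBS and 44.7, 42.3 and 35.8 in CTX. The groups overlapped at Grm4. Grm6, the receptor of retinal ON bipolar cells, gave 26.1, 23.3 and 32.0 in PBS and 20.9, 19.6 and 23.3 in CTX, with CTX replicate 3 just below PBS replicate 2. Grm7, of the same group of presynaptic receptors, gave 20.9, 22.5 and 21.3 in PBS and 23.0, 19.6 and 17.9 in CTX, which overlapped. Grm8 was lower and tighter, at 19.9, 18.9 and 20.1 in PBS against 13.3, 14.7 and 15.2 in CTX, without overlap. Grm2 (chr9:106643095-106656082, minus strand) was called in the 3 PBS libraries only, at 6.13, 8.72 and 9.41. Peaks covered 200 bp of its window in each, with the highest summit 523, 1303 and 1208 bp downstream of a start site. Grm3 and Grm5 were never called, and their nearest peaks in any library lay 496604 and 527525 bp from a start site.

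GABA-A and glycine receptors are the main inhibitory channels of the brain. Of 16 GABA-A receptor subunit genes 5 had a peak and only Gabra5, for the extrasynaptic alpha 5 subunit, had it in all 6 libraries, at 26.6, 27.6 and 30.1 in PBS and 20.9, 25.8 and 17.9 in CTX. Every CTX value of Gabra5 was below every PBS value. Gabrg3, on the same chromosome, was called in PBS replicates 1 and 2. Gabra2 was called in the 3 PBS libraries, at 7.15, 11.6 and 9.41, and in CTX replicate 2, at 6.14. Gabrb2 was called in PBS replicates 1 and 3. The 3 rho subunit genes were among those never called. Of the glycine receptor genes Glra1 was called in PBS replicate 1 only, at 3.07, and Glra3 was never called. Among 16 nicotinic receptor subunit genes, Chrna3, the ganglionic alpha 3 subunit, was called throughout, at 23.0, 26.9 and 34.5 in PBS and 23.7, 27.0 and 23.3 in CTX. These groups overlapped. Chrna7 was called in 4 libraries and Chrna5, the neighbour of Chrna3 on chromosome 9, in PBS replicates 1 and 3. The subunit genes of the muscle receptor (Chrna1, Chrnb1, Chrnd, Chrne and Chrng) had no peak in any library.

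All 6 alpha-adrenergic receptor genes, whose products bind noradrenaline and adrenaline, had a peak in at least 1 library. Adra2b was called throughout, at 30.1, 26.9 and 32.6 in PBS and 26.5, 22.1 and 25.0 in CTX, with the groups just apart. Adra1a, Adra2c and Adra1d were absent from CTX replicate 3 only. Adra1a gave 28.1, 26.9 and 27.0 in PBS and 28.6 and 23.3 in the other CTX libraries, and Adra2c gave 25.0, 29.8 and 30.1 against 23.0 and 19.0. Adra1d was lower, at 14.3, 17.4 and 18.8 in PBS and 12.6 and 16.0 in CTX. Of the beta-adrenergic receptor genes, Adrb3 (chr8:27225776-27250616, minus strand), best known from adipose tissue, was called throughout, at 38.3, 32.7 and 35.7 in PBS and 24.4, 28.8 and 19.7 in CTX. Every CTX library was below every PBS library at Adrb3. Adrb1, the main cardiac receptor, was among the highest where it was called, with 34.7, 31.3 and 37.0 in PBS and 34.2 and 31.3 in CTX replicates 1 and 2. It had no peak in CTX replicate 3, which called Adrb3 at 19.7.

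Of 5 dopamine receptor genes 4 were called. Drd5 (chr5:38319367-38322518, plus strand), the D1-like receptor with a single-exon coding region, was called throughout at 19.9, 18.9 and 20.7 in PBS and 14.0, 11.7 and 12.5 in CTX, and its groups did not overlap. Drd1 was absent from CTX replicate 3 only, at 9.71, 14.5 and 12.5 in PBS and 7.68 and 6.75 in CTX. Drd4 (chr7:141292006-141296464, plus strand) was called in the 3 PBS libraries only, at 8.68, 10.2 and 10.7. Drd2 was called in PBS replicates 1 and 3 and CTX replicate 1, and Drd3 never. Serotonin receptor genes were called at 8 of 13, with Htr6 and Htr1a throughout. Htr6 gave 27.1, 27.6 and 27.0 in PBS and 27.9, 22.1 and 20.6 in CTX, so that CTX replicate 1 lay above all PBS libraries. Htr1a, for an inhibitory receptor, gave 22.5, 24.0 and 25.7 in PBS and 20.2, 23.3 and 16.1 in CTX, with overlap. Htr7 and Htr5b were absent from CTX replicate 3 only. Htr7 gave 11.2, 17.4 and 18.2 in PBS and 12.6 and 17.8 in CTX, and Htr5b gave 10.7, 13.1 and 15.7 against 11.2 and 9.82. The channel subunit genes Htr3a and Htr3b had none. Of 5 muscarinic acetylcholine receptor genes, Chrm3, which acts in smooth muscle and glands, was called throughout at 13.3, 18.2 and 16.9 in PBS and 12.6, 17.2 and 11.6 in CTX. Chrm2 was absent from CTX replicate 3 only, at 11.2, 12.4 and 12.5 in PBS and 13.3 and 8.59 in CTX. Chrm1, Chrm4 and Chrm5 were never called.

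**Figure D3:**
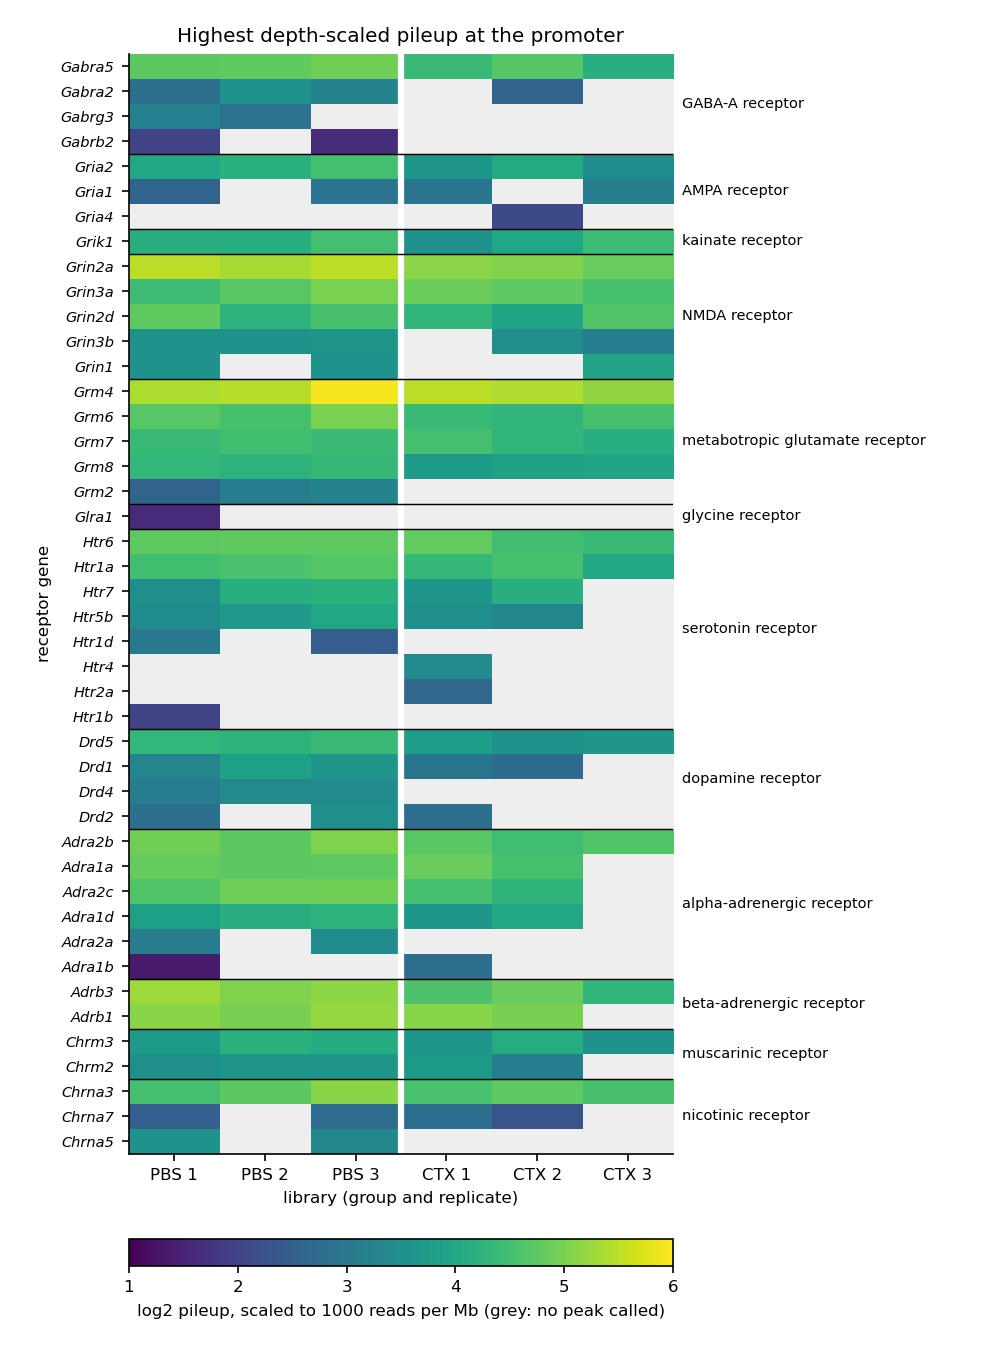
Highest depth-scaled pileup at the promoter (colour, log2 of the pileup scaled to 1000 reads per Mb) for the receptor genes with a peak that are reported by name (rows, by family) in 3 PBS and 3 CTX libraries (columns), with grey where no peak was called. Genes with no grey cell include Grm4 and Grin2a, the brightest rows, and 8 genes are grey in CTX replicate 3 only.

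Fewer receptor genes, and fewer protein-coding genes as a whole, had a peak in CTX than in PBS libraries. The share with a peak was 10.1 percentage points lower in CTX, and the share of all genes was 2.39 points lower (two-sided exact permutation test for all genes, p = 0.2). These points start from unlike shares, 41.9% and 8.64% in PBS. Receptor genes were called 4.85 times as often as all genes in PBS and 5.13 times in CTX. In proportion, their share thus fell no more than that of all genes. In numbers, 30 receptor genes (33.7%) were called in every PBS library, against 6.28% of all genes, and 18 (20.2%) in every CTX library, against 3.81% of all. These 18 were the genes called in all 6 libraries. Of the 46 genes with any peak, 21 had it in more PBS than CTX libraries, 4 in more CTX than PBS libraries, among them Gria4, Htr2a and Htr4, and 21 in equal numbers. The same counts over the 2585 protein-coding genes with any peak were 1323, 301 and 961. Drd4 and Grm2 were called in every PBS and no CTX library (2.25% of receptor genes, against 0.418% of all genes), which is 6.67% of the receptor genes called in every PBS library, beside 6.66% of all genes called there. No receptor gene had a peak in every CTX and no PBS library, and neither did any protein-coding gene (0%). Left out in turn, CTX replicate 3 moved the difference in share to −6.55 points, and PBS replicate 2 raised the number of genes in every PBS and no CTX library from 2 to 6. Without PBS replicate 2 that pattern needs a peak in only 2 PBS libraries, and the share of all genes is not given for it. With the same number of peaks, 2916, taken from each library, the shares were 29.2%, 32.6% and 34.8% in PBS and 32.6%, 30.3% and 24.7% in CTX, a difference of −3.00 points. The receptor share was then 25.9 points above that of all genes in PBS and 24.0 points above it in CTX. With these equal numbers no receptor gene was in every PBS and no CTX library.

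At the 18 genes called throughout, the pileup could be compared directly. The log2 difference between CTX and PBS had a median of −0.27, with quartiles of −0.43 and −0.22, and was below 0 at 17 of 18 genes. Over all 757 protein-coding genes with a value in each library the median was −0.28, with quartiles of −0.40 and −0.15, and 696 were below 0. The receptor median thus lay close to that of all marked promoters after scaling for depth. Every CTX library was below every PBS library at 7 of the 18 genes, Grin2a, Adrb3, Adra2b, Gabra5, Grm6, Grm8 and Drd5, a share of 38.9% beside 38.3% of the 757. The reverse was found at none of the 18, beside 1.45% of the 757. The lowest value was at Drd5, −0.65 on the log2 scale, followed by Adrb3 at −0.56 and Gria2 at −0.51. At Drd5 the means were 19.8 ± 0.900 in PBS and 12.7 ± 1.16 in CTX (SD, n = 3), and the exact permutation p was 0.1, the smallest the design allows. At Grin2a the means were 43.4 ± 2.39 and 32.2 ± 3.23, a log2 difference of −0.43, with the same p of 0.1 by exact permutation. Grin3a, at 0.01, was the exception to the direction (exact permutation p = 1). Grm7 had the next smallest difference, −0.11, with exact permutation p = 0.5.

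**Figure D4:**
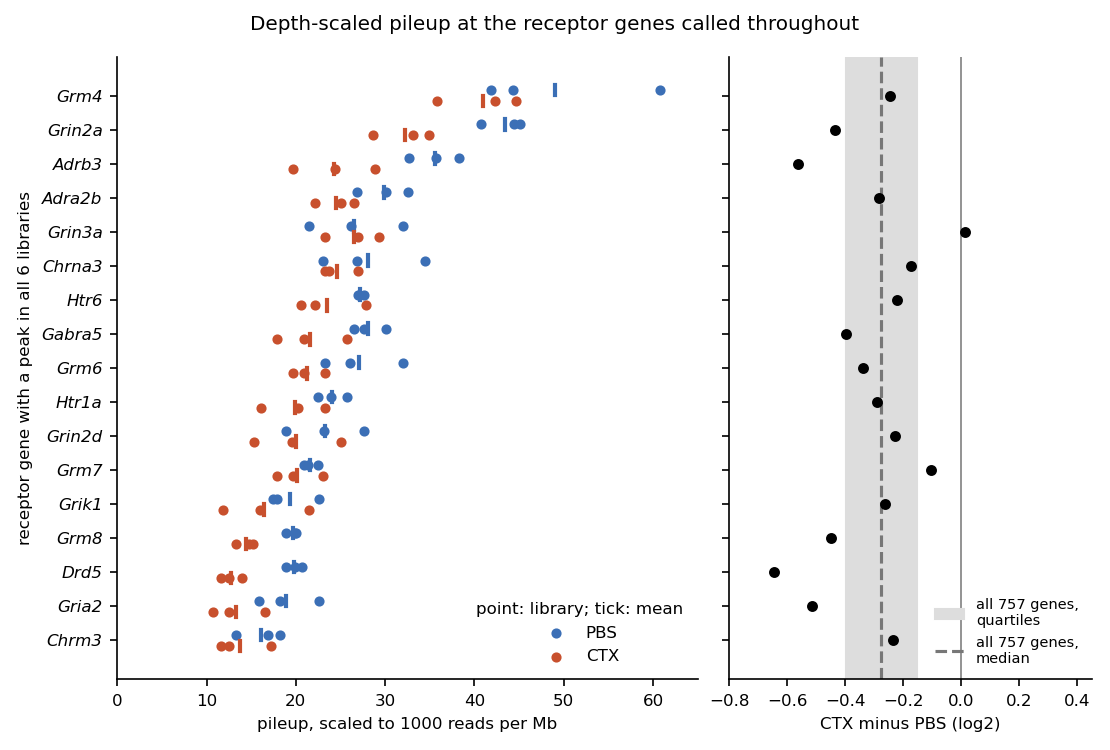
Left, pileup scaled to 1000 reads per Mb (horizontal axis) at 17 of the 18 receptor genes called in all 6 libraries, with a point for each PBS (blue) or CTX (red) library and a tick for the group mean. Right, the log2 difference of CTX minus PBS for each gene, with the median (dashed) and quartiles (grey band) of all 757 genes, −0.28 and −0.40 to −0.15. Of the genes shown only Grin3a lies above 0.

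The length of promoter covered by peaks was also compared. A receptor gene had on average 359 ± 91.4 bp covered in PBS and 213 ± 78.9 bp in CTX (SD, n = 3, genes without a peak at 0), beside 67.8 ± 14.9 and 37.1 ± 14.5 bp for all genes (two-sided exact permutation test for all genes, p = 0.2). The difference for receptor genes, −146 bp, was −80.4 bp with the same number of peaks taken from each library. Among genes with a peak, the median covered length was 945, 690 and 915 bp in PBS and 712, 781 and 447 bp in CTX for receptor genes. All genes with a peak had medians of 689, 581 and 688 bp and of 457, 563 and 386 bp. The median covered length was thus greater at receptor genes in every library. By the q-value of its strongest peak, a called receptor gene stood at a median percentile of 76.7, 79.5 and 78.3 among the peaks of the PBS libraries and of 73.5, 78.9 and 62.2 in the CTX libraries, beside 62.9 to 68.0 for all called genes. Every CTX library was below every PBS library in covered bases at 5 of the 18 genes (27.8%). Of the 757 protein-coding genes with a pileup in each library, 32.2% were so. The reverse was found at none of the 18, against 0.793% of the 757. The 5 were Adra2b, Grin3a, Htr6, Grm6 and Drd5. At Htr6 the covered length was 2001, 1205 and 1500 bp in PBS and 483, 1089 and 408 bp in CTX, although its pileup groups overlapped. Htr1a had 1466, 1210 and 1152 bp in PBS and 1192, 1192 and 1161 bp in CTX. Grin3a had 1012, 1382 and 1383 bp in PBS against 775, 867 and 663 bp in CTX, beside a log2 pileup difference of 0.01.

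The peaks lay around and inside the start of the genes. The highest summit of a called receptor gene was downstream of its nearest TSS at 61.9% to 87.1% of the genes in a library, beside 64.3% to 66.7% for all genes. The median position by library was 175 to 670 bp downstream for receptor genes, a range that held the 317.5 to 367 bp of all genes. At Htr1a, Gria2, Grin3a and Adra2b the median summit over the 6 libraries was 964, 1277, 1116 and 900 bp downstream, whereas at Grm4, Grin2d and Grm6 it was 625, 395 and 118 bp upstream. For 13 of the 18 genes called throughout, the peaks were at the 5′ end of the gene. At the others they were at internal start sites. The start site with the most covered bases lay 7997 bp into Grm4, 7949 bp into Grin2d and 22033 bp into Adrb3, and none of these 3 genes had a peak within 2000 bp of its annotated 5′ end. Grm8 had peaks there in 2 libraries. The peaks of Adrb3, Htr6, Grm6, Grm7, Drd5 and Chrm3 also fell in the window of a noncoding gene.

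**Figure D5:**
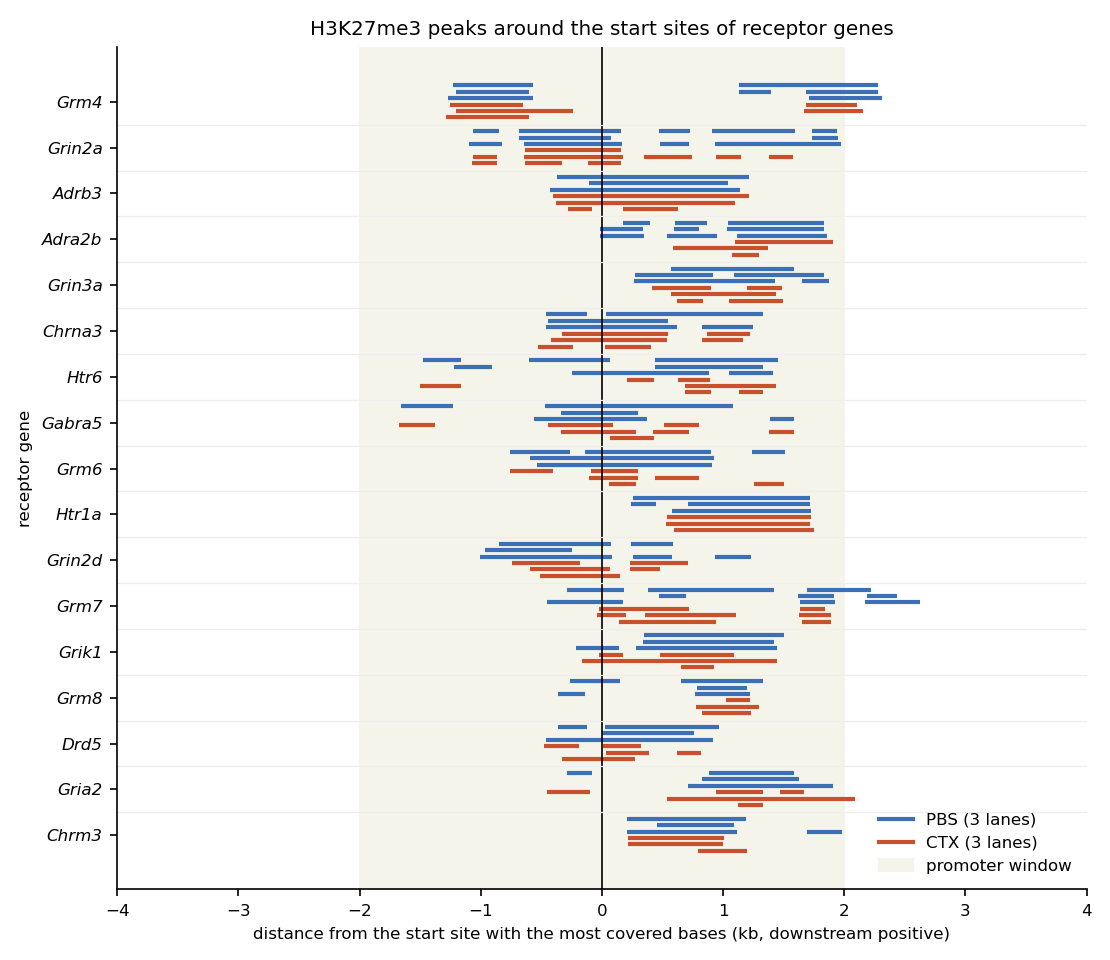
Merged H3K27me3 peaks (bars) around the start site with the most covered bases (0 kb, horizontal axis in kb, downstream positive) of 17 of the 18 receptor genes called in all 6 libraries, with 3 PBS lanes (blue) above 3 CTX lanes (red) for each gene and the 2000 bp window shaded. Peaks of Htr1a lie wholly downstream of the start site in every library, whereas those of Grm4 leave a gap at it.

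Promoter CpG content, which the choice of genes had not used, differed between called and uncalled receptor genes. A promoter was taken as CpG-rich when the CpG observed-to-expected ratio was at least 0.6 and the GC content at least 50% in the 1000 bp centred on a TSS. For a gene with several TSSs, the TSS with the highest ratio was used. By this measure 42 of 89 receptor promoters (47.2%) were CpG-rich, beside 52.3% of all genes. Of the CpG-rich receptor genes 71.4% had a peak in at least 1 library, against 34.0% of the others. The corresponding shares of all genes were 16.1% and 8.39%. The median ratio was 0.38 for 43 receptor genes never called, 0.63 for 28 called in 1 to 5 libraries and 0.71 for 18 called in 6, beside 0.62, 0.69 and 0.73 for all genes. Receptor promoters never called were thus poorer in CpG than uncalled promoters at large, while those called in 6 libraries were close to all genes so called. Genes are not replicates and no p is given. Receptor genes called in 6 libraries also had more TSSs, a median of 3.5, and a longer sequence searched, 8241.5 bp. Receptor genes never called had medians of 2 TSSs and 4238 bp. For all genes the medians were 3 TSSs and 8002 bp when called in 6, and 3 and 6932 bp when never called. More TSSs give more places for both a peak and a high ratio, and their part in the CpG difference was not tested. Adrb3, Htr1a, Grin2d and Grm7 were called throughout without a CpG-rich promoter, with ratios of 0.42, 0.42, 0.42 and 0.52.

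The 43 receptor genes never called included 12 with a CpG-rich promoter, among them Chrna4, Chrnb1, Gabrb1, Grik2, Grik3 and Grik4. Grik3 had the highest ratio of these, 0.93. Its nearest peak was 2209, 2184 and 2371 bp from a start site in PBS libraries, just outside the window. In CTX libraries the nearest peak was 238631, 214900 and 238293 bp away. The nearest peak of Chrm4 in any library, whose promoter was not CpG-rich at its 1 annotated start site, was 3690 bp away. That of Chrnd was 4127 bp away. Most lay farther, as at Chrna4 (72957 bp). Peak lists hold no reads outside peaks, so for these genes a signal under the threshold of the peak caller cannot be told from none. Calls and CpG class also depend on the start sites used. The RefSeq start site of Chrm4 lies elsewhere, and the 250 bases upstream of it (chr2:91921939-91922188) held 26 CG. No peak covered these bases in any library, and the wider window around that site was not scored.

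Related genes of the same transmitter systems were listed for comparison. Of receptor genes 51.7% were called in at least 1 library and 20.2% in all 6, and of all protein-coding genes 12.4% and 3.64%. Of 15 genes of transmitter synthesis and breakdown 4 (26.7%) were called, each in all 6 libraries. They were Gad1 and Gad2, which make GABA, Chat, which makes acetylcholine, and Ache, which breaks it down. Chat and the vesicular acetylcholine transporter gene Slc18a3 share a locus and had the same mean pileup, 60.5 in PBS and 52.2 in CTX, above that of Grm4. Of 22 vesicular and plasma membrane transporter genes 12 (54.5%) were called, 5 of them throughout. The serotonin transporter gene Slc6a4 was called in every PBS and no CTX library. Of 29 autosomal genes for receptor scaffolds and auxiliary subunits 16 (55.2%) were called, with Shank1, Shank3, Nlgn1, Neto1 and Shisa7 in all 6. Transporter and scaffold genes were thus called in at least 1 library about as often as receptor genes, so the higher share was not particular to the receptors. Gabbr2, a subunit of the metabotropic GABA receptor, and Grid1 were called in all 6 libraries. They made up 33.3% of 6 receptor genes of these transmitters that the symbols did not cover, and the others were never called. Of 36 other G protein-coupled receptor genes, for neuropeptides, adenosine, cannabinoids and histamine, 22 (61.1%) were called and 5 throughout, beside 73.7% of the G protein-coupled transmitter receptors, and Cnr1, the cannabinoid receptor gene, was in every PBS and no CTX library. By library 19, 17 and 16 of these genes were called in PBS and 16, 16 and 7 in CTX, so CTX replicate 3 was again the lowest.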

How the data were processed

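H3K27me3 CUT&Tag was measured in 3 PBS and 3 CTX libraries. Per the methods of the study and the submitters' processing notes, the authors aligned reads to mm10 with BWA, kept uniquely mapped, de-duplicated reads and called peaks in each library with MACS2 2.1.0 at a q-value threshold of 0.05. The control library, if any, is not given in the sources used here. The deposited lists hold 1 line per summit, with a score, the fold enrichment over background, the p-value and q-value as −log10, and the summit offset, all written by the authors' peak caller. Narrow peaks were called for a mark that can spread broadly, so long domains may appear as several pieces. The lists hold no total read counts and no reads outside peaks, so the depth used here is the one implied by the peak statistics.

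Lines with shared bases were merged into peaks. The whole-number pileup and the background were solved from the fold enrichment and p-value of each summit (99.8% to 99.9% of summits), with fragments of 200 bp, and pileups were divided by the library's depth and scaled to 1000 reads per Mb. Genes and TSSs came from the GENCODE M21 annotation of GRCm38, and an overlap of 1 bp was enough for a call. Promoter sequences came from RefSeq.

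Groups were taken from the sample titles. Single genes were tested by two-sided exact permutation over libraries. The receptor genes, the related gene lists and the markers were chosen with earlier results of these data known, so no test was made over a list. Genes described with values were those called in all 6 libraries, in every library of a group, in every library of 1 group and none of the other, or highest in their family, and others were given by name or count. A few genes are counted but not reported by name here. Same-numbered PBS and CTX libraries did not deviate together (correlations of −0.046, −0.078 and −0.066 over 757 genes), so the scaled pileups gave no sign of pairing by number. A pairing that left no pattern in the scaled pileups would not show. The labels name no batch. The analysis used Python 3.11.15 with numpy 2.4.6, pandas 2.3.3, scipy 1.17.1 and pysam 0.24.0, and the pileup solution was tested on simulated data. The alternatives were other q-value thresholds, equal peak numbers, a narrower window, the 5′ end of the gene only, joined peaks, summits in place of peaks, a replicate block and leaving out each library.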

Additional observations from a re-analysis of the deposited data

How the results depend on the processing

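The higher share of receptor genes than of all genes was found under every alternative run, although its size moved. It was 33.3 percentage points in PBS and 25.6 in CTX, and with peaks at a q-value of at most 1e-05 it was 24.1 and 14.7 points. With only the 5′ end of each gene it was 28.6 and 20.3 points, and with equal peak numbers 25.9 points in PBS. At a q-value of at most 1e-05, 7 receptor genes were called in all 6 libraries and the same number in every CTX library, in place of 18, and 0 were in every PBS and no CTX library. That last count, 2 as reported, was 0 with equal peak numbers, 1 with a window of 1000 bp and 2 to 6 when each library was left out, the 6 without PBS replicate 2. The difference in share between CTX and PBS, −10.1 points as reported, was −3.00 points with equal peak numbers. The counts of receptor genes under the alternatives are not set beside those of all genes, so whether all genes moved alike is not shown. With a PBS library left out, every PBS library means 2 libraries. The cause of the moves was not tested.

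With the replicate block, which compares same-numbered libraries as paired, the difference in share was −10.1 points. A mean over pairs equals the difference of the group means, and the sign flips of 3 pairs cannot go below an exact p of 0.25, so the block says nothing about stability. At single genes, the log2 pileup difference of Grin3a, 0.01 as reported, was −0.065 with a window of 1000 bp and ran from −0.13 to 0.16 when each library was left out, and that of Grm7 was 0.25 with a window of 1000 bp. Of 158 alternative values at single genes, the block aside, 153 kept their direction, and 28 of these moved by over 1.5 times, 27 of them with a library left out. Chrna3, −0.17 with all libraries, was −0.015 without PBS replicate 3, and Grm7, −0.11 as reported, was −0.022 without CTX replicate 3. With 3 libraries in each group no single gene can go below an exact permutation p of 0.1, so none could change its side of the threshold. Genes whose signal is under the threshold of the peak caller have no value.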
